A study of Mus musculus with 12 samples.

Results

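A group of 6 genes of T cell surface proteins and lectins was followed across the 4 treatment groups: the MS4A family genes Ms4a4b, Ms4a4c and Ms4a6b, the gene of the surface glycoprotein CD52, and the genes of galectin-1 (Lgals1) and galectin-9 (Lgals9). They are 6 of the 56691 mouse genes in the deposited count table and were taken by name, as rows whose Ensembl identifiers were matched to symbols with a GRCm38 annotation. They were chosen by name from the differences in read counts between combination blockade and the other groups in these same samples, so those differences, and the calls that a fit over all genes made on them, are given as a description that supports nothing. All 6 passed the filter of at least 30 reads in sum over the 12 samples, which 15138 genes passed.

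RNA came from splenic CD4+ T cells of 12 Tg4 Nr4a3-Tocky Il10-GFP mice aged 6 to 8 weeks, 3 in each group and 1 library per mouse. Tg4 is a transgenic T cell receptor for a myelin basic protein peptide, so the responding cells share 1 receptor specificity. The Tocky reporter makes a Timer protein from Nr4a3 regulatory sequence, whose blue form matures to red, and cells positive for both forms were sorted. Every mouse first received 4 mg/kg of [4Y]-MBP peptide. After 24 h the isotype group received a pool of rat IgG1 and rat IgG2a, the anti-PD-L1 group received clone MIH5 and the anti-Lag3 group received clone C9B7W, each at 0.5 mg. The fourth group, called CB, received the anti-PD-L1 and anti-Lag3 antibodies pooled in equal parts. Whether 0.5 mg was then the dose of each antibody or of their sum is not given in the sources used here. All mice were given a further 0.4 mg/kg of peptide 30 min later, and spleens were taken 12 h after that. Cells positive for CD11b or CD8 were gated out of the sort. Samples were mixed for the sort in batches of 4 and told apart by a CD4 antibody whose fluorochrome differed by group, so stain and group cannot be told apart. In bulk RNA, a smaller share of cells that express a gene and less of its RNA per cell cannot be told apart.

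MS4A proteins are small membrane proteins that cross the membrane several times and sit in complexes with other receptors. The best known is CD20 of B cells, the product of Ms4a1, whereas Ms4a4b and Ms4a6b are expressed by T cells, and MS4A4B protein associates with the costimulatory receptor GITR. CD52 is a very short glycoprotein held in the membrane by a glycosylphosphatidylinositol (GPI) anchor. It is abundant on lymphocytes, and its soluble form binds HMGB1 and Siglec receptors. Galectins are lectins that bind beta-galactosides on surface glycoproteins. Galectin-1 binds CD45, CD43 and CD7 on T cells, galectin-9 binds TIM-3 and CD44, and sialic acid added to the glycans can mask their ligands.

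The members of the MS4A family lie in 1 cluster on chromosome 19 of GRCm38. Ms4a4c (ENSMUSG00000024675) spans chr19:11404770-11427246, Ms4a4b (ENSMUSG00000056290) spans chr19:11443553-11467055 and Ms4a6b (ENSMUSG00000024677) spans chr19:11516512-11531256, all on the plus strand. Cd52 (ENSMUSG00000000682) lies at chr4:134082448-134095082 on the minus strand, Lgals1 (ENSMUSG00000068220) at chr15:78926725-78930465 on the plus strand and Lgals9 (ENSMUSG00000001123) at chr11:78962974-78984946 on the minus strand. RefSeq promoter windows of GRCm38.p6, from 250 bases before to 50 bases after a gene's start, were matched for 4 of the 6 genes. They are shown because the levels of these genes were lower together in CB, and because the first pair comes from close paralogs. Capitals mark matches on either strand to 6 motifs that were searched. The windows are chr19:11443308-11443607 for Ms4a4b, chr19:11407411-11407710 for Ms4a4c and chr19:11518309-11518608 for Ms4a6b, each on the plus strand, and chr11:78984875-78985174 on the minus strand for Lgals9. Positions in them are counted from the RefSeq start, which for all 4 genes lies inside the annotated span given here and not at the first base of the gene.
Ms4a4b: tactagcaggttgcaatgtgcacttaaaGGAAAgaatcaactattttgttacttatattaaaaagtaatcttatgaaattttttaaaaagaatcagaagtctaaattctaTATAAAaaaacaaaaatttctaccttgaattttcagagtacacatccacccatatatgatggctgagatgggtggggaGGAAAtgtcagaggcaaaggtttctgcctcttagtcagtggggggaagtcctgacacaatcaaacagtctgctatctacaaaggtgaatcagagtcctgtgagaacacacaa
Ms4a4c: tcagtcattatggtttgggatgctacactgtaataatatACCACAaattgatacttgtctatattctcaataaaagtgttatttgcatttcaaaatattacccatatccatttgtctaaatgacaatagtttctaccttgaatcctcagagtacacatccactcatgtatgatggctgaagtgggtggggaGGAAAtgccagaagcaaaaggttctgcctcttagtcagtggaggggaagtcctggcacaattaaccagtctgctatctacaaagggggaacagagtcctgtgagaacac
Ms4a6b: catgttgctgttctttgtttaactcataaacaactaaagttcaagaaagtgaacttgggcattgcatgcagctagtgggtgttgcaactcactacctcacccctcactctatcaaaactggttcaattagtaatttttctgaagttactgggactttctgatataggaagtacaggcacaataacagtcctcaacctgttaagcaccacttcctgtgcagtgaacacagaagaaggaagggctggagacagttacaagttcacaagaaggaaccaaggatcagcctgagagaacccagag
Lgals9: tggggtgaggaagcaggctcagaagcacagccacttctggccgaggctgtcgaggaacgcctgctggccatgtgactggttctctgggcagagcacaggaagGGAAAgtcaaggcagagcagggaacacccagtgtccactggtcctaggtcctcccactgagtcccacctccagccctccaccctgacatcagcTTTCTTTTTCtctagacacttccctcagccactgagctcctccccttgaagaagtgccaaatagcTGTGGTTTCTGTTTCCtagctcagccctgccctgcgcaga

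The windows of Ms4a4b and Ms4a4c were alike from about the middle to the end. A local alignment of 178 columns, from base 120 to base 296 of the Ms4a4b window and from base 123 to base 300 of the Ms4a4c window, was identical in 159 columns (89.3%) with 1 gap column. Aligned over their whole length with free ends, this pair was identical at 80.9% of aligned bases and the other pairs at 54.0% to 63.9%. The motifs were the NFAT core GGAAA, the RUNX motif TGTGGT, the ETS motif CGGAAG, the interferon response motif (GAAA, any 2 bases, GAAA), the GC box GGGCGG and the TATA box TATAAA. The NFAT core was found in 3 of the 4 windows, and 61.3% of 32851 RefSeq windows hold it. Inside the aligned stretch it stood 62 bases before the RefSeq start of Ms4a4b and 59 bases before that of Ms4a4c. The interferon response motif stood in the Lgals9 window only, at 2 positions, 55 bases before the RefSeq start and 16 bases after it, and 3.44% of all windows hold it. The second of these overlapped a RUNX match and an NFAT core match. Both interferon response matches and that NFAT core match were on the strand opposite to the printed one, and the RUNX match was on the printed strand. RUNX matches were in 2 windows (16.8% of all windows), a TATA box was in 1 (13.6%), and neither the ETS motif (16.9%) nor the GC box (35.7%) was in any of the 4. A match describes the letters of the window and no more.

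The close sequences bear on the counts. The longest coding transcripts of Ms4a4b and Ms4a4c were identical at 90.4% of 1650 aligned bases, and those of Ms4a6b and Ms4a6c at 88.9% of 1544. The libraries read mRNA at its 3′ end, so stretches of 50 bases in the last 500 bases of the coding transcripts were compared with all other genes. None was shared for Ms4a4b, Cd52, Lgals1 or Lgals9. For Ms4a6b 1.22% were shared, with Ms4a6c, and for Ms4a4c 11.1% were shared, with Ms4a4b and Ms4a4d. Ms4a4c had 4170 reads over the 12 samples against 172649 for Ms4a4b. The study's methods state that its counts are of uniquely mapped reads, so reads that map equally well to both genes would be left out. Whether other reads of the paralog were counted on Ms4a4c was not tested, and its value is uncertain to that extent.

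Reads counted on genes were between 16449370 and 22151025 per sample, and levels are given as counts per 1000000 reads (CPM) after TMM scaling. Transcripts of CD4 T cells were abundant in all 12 samples, with a summed level of 8 markers between 3074 and 3696 CPM. That sum was 3483 to 3666 CPM in isotype, 3406 to 3440 in anti-Lag3, 3278 to 3696 in anti-PD-L1 and 3074 to 3150 in CB, and Cd4 and Cd3e were lower in CB than in isotype (adjusted p = 0.00918 and 0.0401, edgeR). The 10 myeloid markers summed to 68.8 to 80.2 CPM in isotype, 62.01 to 84.2 in anti-Lag3, 70.4 to 94.6 in anti-PD-L1 and 56.6 to 70.0 in CB, most of it Cst3. Of the 9 myeloid markers tested 0 were called between CB and isotype, but their median log2 fold change was -1.08, with -1.99 for Itgam, -2.38 for Tyrobp and 1.25 for Lyz2, and Adgre1 had no read in CB. Each of these 4 had a mean below 4 CPM in both groups. The 5 dendritic cell markers summed to 0.201 to 4.24 CPM in isotype and 1.10 to 4.35 in anti-Lag3. Their sum was 0.841 to 3.41 CPM in anti-PD-L1 and 0.865 to 2.72 in CB. Of these markers, Xcr1 had no read. The other 4 were tested, and 0 were called between CB and isotype. At these low levels their median difference was -0.60 on the log2 scale. The 5 erythroid markers summed to 241 to 449 CPM in isotype, 213 to 287 in anti-Lag3, 170 to 217 in anti-PD-L1 and 150 to 198 in CB. Of these, Hbb-bs and Hbb-bt were lower in CB than in isotype (adjusted p = 0.00509 and 0.00363, edgeR). The 2 CD8 T cell markers summed to 40.9 to 45.3 CPM in isotype, 29.2 to 46.4 in anti-Lag3, 24.6 to 30.5 in anti-PD-L1 and 25.04 to 33.2 in CB. The 5 NK cell markers summed to 4.58 to 7.85 CPM in isotype, 4.25 to 12.8 in anti-Lag3, 4.78 to 5.92 in anti-PD-L1 and 7.93 to 9.95 in CB. The part of these differences in the levels of the 6 genes was not tested.

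Ms4a4b was the member whose level in CB stood farthest below the other groups relative to its spread. Its levels were 850, 978 and 952 CPM in isotype, 803, 825 and 926 CPM in anti-Lag3, 755, 713 and 820 CPM in anti-PD-L1 and 452, 464 and 467 CPM in CB. The CB samples were the lowest 3 of the 12 and lay close together, and the anti-Lag3 samples overlapped both isotype and anti-PD-L1. Group means were 927 ± 67.4 CPM in isotype, 852 ± 65.5 in anti-Lag3, 763 ± 53.7 in anti-PD-L1 and 461 ± 7.83 in CB (SD, n = 3). The log2 fold change of CB was -1.01 (SE 0.0852) against isotype, -0.89 (SE 0.0851) against anti-Lag3 and -0.73 (SE 0.0849) against anti-PD-L1. Its level in CB was thus 50.3% below isotype.

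Ms4a4c, the paralog beside Ms4a4b, was measured with far fewer reads, between 172 and 466 per sample. Its levels were 16.7, 23.1 and 23.3 CPM in isotype, 19.1, 23.1 and 18.2 in anti-Lag3, 25.5, 18.7 and 20.2 in anti-PD-L1 and 10.1, 8.27 and 12.2 in CB. The first 3 groups overlapped one another, and the CB samples were again the lowest 3. The means were 21.02 ± 3.78 CPM, 20.1 ± 2.58, 21.5 ± 3.56 and 10.2 ± 1.95 CPM (SD, n = 3) in the same order. The log2 fold change of CB was -1.05 (SE 0.277) against isotype, -0.98 (SE 0.276) against anti-Lag3 and -1.08 (SE 0.277) against anti-PD-L1.

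Ms4a6b, the third gene of the cluster, differed in the place of the single-antibody groups. It had 643, 672 and 607 CPM in isotype, 558, 577 and 516 in anti-Lag3, 573, 581 and 500 in anti-PD-L1 and 464, 452 and 414 in CB. The isotype samples were the highest 3 of 12, the CB samples were the lowest 3, and both single-antibody groups lay between them and overlapped each other. Means were 641 ± 32.7, 550 ± 30.9, 551 ± 45.02 and 443 ± 26.3 CPM (SD, n = 3). CB differed from isotype by a log2 fold change of -0.53 (SE 0.0889), from anti-Lag3 by -0.31 (SE 0.0887) and from anti-PD-L1 by -0.32 (SE 0.0887).

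Cd52 followed the same order as Ms4a6b. Its levels were 1293, 1352 and 1362 CPM in isotype, 1165, 1158 and 1194 in anti-Lag3, 1123, 1233 and 1207 in anti-PD-L1 and 908, 958 and 887 in CB. Isotype was highest in all 3 samples, CB was lowest in all 3, and the single-antibody groups overlapped. Means were 1336 ± 37.0, 1172 ± 19.2, 1188 ± 57.6 and 918 ± 36.3 CPM (SD, n = 3). The log2 fold change of CB was -0.54 (SE 0.0710) against isotype, -0.35 (SE 0.0709) against anti-Lag3 and -0.37 (SE 0.0709) against anti-PD-L1. Crybg2 overlaps Cd52 on the opposite strand in the annotation and had 658 reads against 266306 for Cd52, and the strand setting of the counting is not given in the sources used here.

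**Figure D1:**
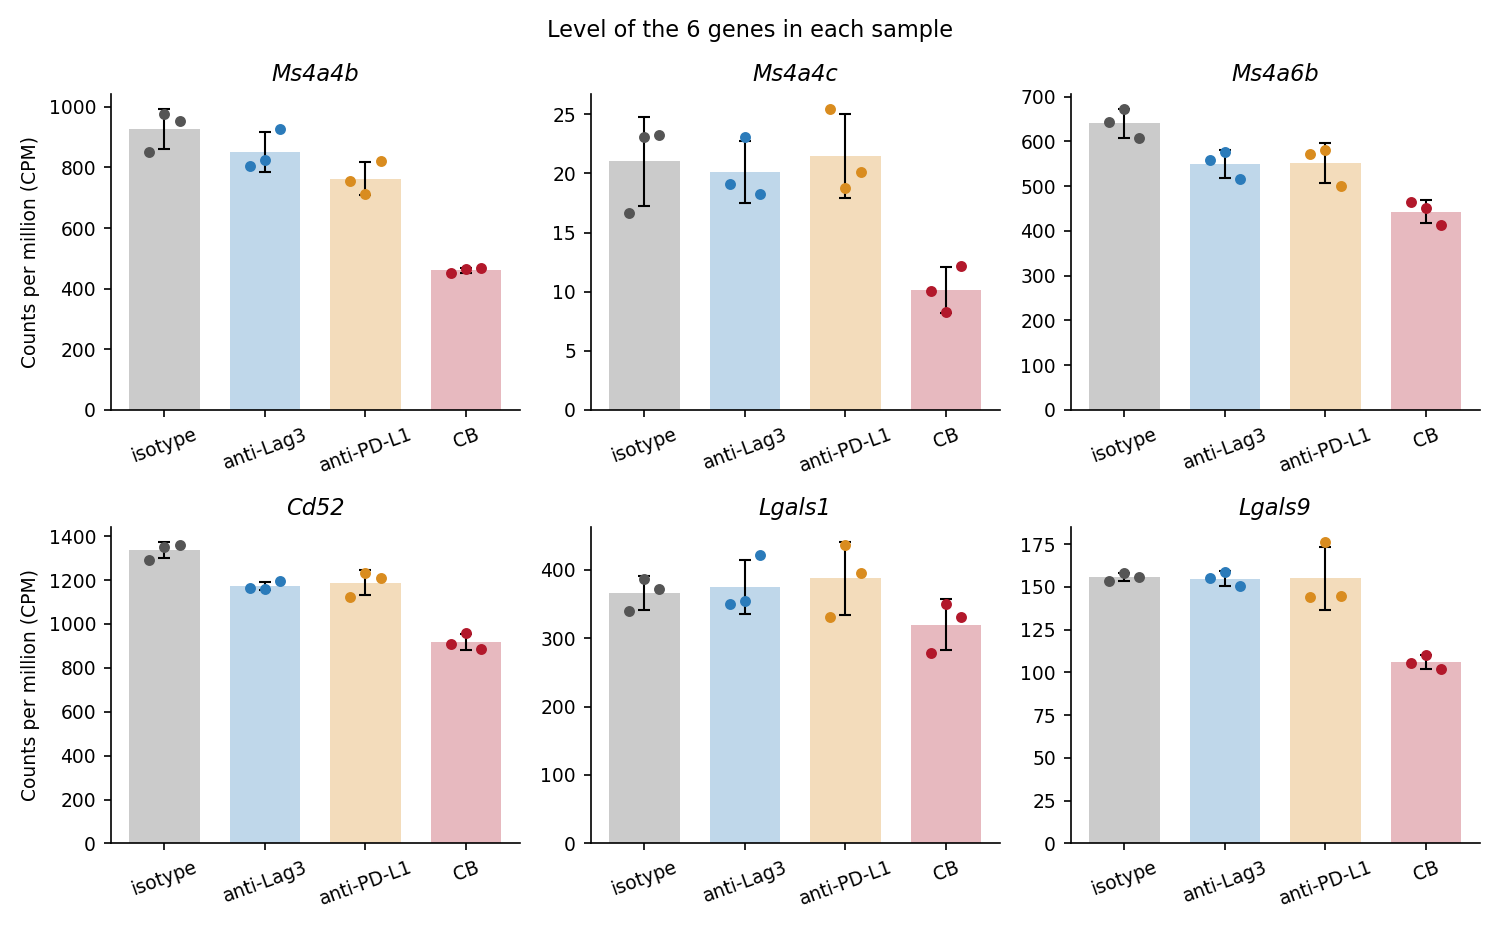
Level of each gene in CPM (vertical axes, from 0) in the 4 groups; points are the 12 samples, bars the group means and error bars the SD of 3 samples. The CB samples are the lowest 3 for every gene but Lgals1, whose CB samples reach 350 CPM and overlap the other groups.

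The galectin genes differed from each other. Lgals9 had 153, 158 and 156 CPM in isotype, 155, 159 and 150 in anti-Lag3, 144, 176 and 144 in anti-PD-L1 and 105, 110 and 102 in CB. The first 3 groups had nearly equal means, 156 ± 2.36, 155 ± 4.24 and 155 ± 18.4 CPM, and CB had 106 ± 4.13 (SD, n = 3), with its samples below all others. The log2 fold change of CB was -0.56 (SE 0.115) against isotype and -0.55 (SE 0.115) against either single antibody.

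Lgals1 had 339, 387 and 372 CPM in isotype, 350, 354 and 421 in anti-Lag3, 331, 436 and 395 in anti-PD-L1 and 278, 350 and 331 in CB. Its groups overlapped throughout, although CB 1 and CB 3 were among the lowest 3 samples. Means were 366 ± 24.4, 375 ± 39.6, 387 ± 53.0 and 320 ± 37.7 CPM (SD, n = 3), and CB differed from isotype by a log2 fold change of -0.19 (SE 0.112), from anti-Lag3 by -0.23 (SE 0.112) and from anti-PD-L1 by -0.28 (SE 0.112). Lgals1 was the only member of the 6 whose CB samples were not below all 9 others. The CB samples lay below all 9 others for 1.79% of all genes tested.

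Between CB and isotype, the call at an adjusted p under 0.05 was met by 5 of the 6 genes, all lower, and not by Lgals1, where 1.96% of genes tested were called lower. Between CB and anti-PD-L1 and between CB and anti-Lag3 the same 3 genes, Ms4a4b, Cd52 and Lgals9, were called lower, against 0.165% and 0.304% of genes, and 0.0793% of genes were called lower in all 3. The genes were proposed with these comparisons in view, so nothing is read from these counts. The median log2 fold change of the 6 between CB and isotype was -0.55, beside 0.00 over all genes tested. When samples were scaled by the spike-in reads instead, the median of all genes between CB and isotype rose by 0.19 on the log2 scale. With that scaling 0 of the 6 were called in any comparison with CB. Calls were lost among all genes too, from 649 to 73 against isotype and from 105 to 1 against anti-Lag3. The values against isotype were then -0.81 (SE 0.236) for Ms4a4b, -0.84 (SE 0.38) for Ms4a4c, -0.32 (SE 0.249) for Ms4a6b, -0.34 (SE 0.232) for Cd52, -0.01 (SE 0.235) for Lgals1 and -0.35 (SE 0.257) for Lgals9. Against anti-PD-L1 they were -0.53 for Ms4a4b, -0.91 for Ms4a4c, -0.12 for Ms4a6b, -0.17 for Cd52, -0.08 for Lgals1 and -0.34 for Lgals9. Against anti-Lag3, in the same order of genes, they were -0.83, -0.98, -0.28, -0.31, -0.19 and -0.51. Single samples also decided calls, among all genes as among the members. Without anti-PD-L1 2, CB 1 or CB 3 only Ms4a4b of the members was called between CB and anti-PD-L1. Over all genes 5, 15 and 4 were then called, from 56. Without CB 2 Lgals9 was not called. Values were -0.36 to -0.34 for Cd52 and -0.58 to -0.45 for Lgals9. Between CB and anti-Lag3 only Ms4a4b of the members was called without anti-Lag3 3, CB 1 or CB 3. Over all genes 45, 44 and 42 were then called, from 105. Lgals9 was not called without anti-Lag3 1 or anti-Lag3 2. Values were -0.35 to -0.33 for Cd52 and -0.57 to -0.52 for Lgals9. Ms4a4c was not called against isotype without isotype 2 (log2 fold change -0.97), isotype 3 (-0.97), CB 1 (-1.04) or CB 2 (-0.92).

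What each antibody did alone was read from the same fit over all genes with edgeR's quasi-likelihood test. These comparisons share their samples with the differences by which the 6 genes were chosen, so the members' values in them are a description too, given with no adjusted p, and nothing is read from their counts. Anti-PD-L1 against isotype called 0.033% of genes, all higher, and 0 of the 6 in edgeR, or 5 genes against 56 in DESeq2's Wald test, which also called 0 of the 6. Ms4a4b had a log2 fold change of -0.28 (SE 0.0844, 95% interval -0.45 to -0.11). Its 3 anti-PD-L1 samples lay below the 3 isotype samples, as they did for Ms4a6b (-0.22) and Cd52 (-0.17), an arrangement that 6.46% of genes showed. Ms4a4c, Lgals1 and Lgals9 differed by 0.03, 0.08 and -0.01 on the log2 scale, with overlapping samples. An unadjusted p under 0.05 was given to 3 of the 6 genes and to 7.84% of all genes.

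Anti-Lag3 against isotype called 0 of the 6 and 0% of all genes in edgeR. Ms4a6b and Cd52 had log2 fold changes of -0.22 (SE 0.0886, 95% interval -0.40 to -0.04) and -0.19 (SE 0.0708, 95% interval -0.33 to -0.04), and their samples did not overlap with isotype (4.81% of genes lay lower in this way). For Ms4a4b the value was -0.12 with an interval from -0.30 to 0.05, so a reduction of the size given for anti-PD-L1 was not excluded. Unadjusted p-values under 0.05 were given to 2 of the 6 and to 788 genes (5.21%) in all, and DESeq2's Wald test called 9 genes. The 2 antibodies compared directly also called 0 of the 6 and 0% of genes in edgeR, with 710 genes (4.69%) and none of the 6 at an unadjusted p under 0.05 and 10 genes called by DESeq2. The value for Ms4a4b, anti-PD-L1 minus anti-Lag3, was -0.16 (95% interval -0.33 to 0.01), and those of the other 5 genes lay between 0.00 and 0.09.

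Both single-antibody groups combined against isotype gave the narrowest intervals. Log2 fold changes were -0.20 (SE 0.0725, 95% interval -0.35 to -0.05) for Ms4a4b, -0.22 (SE 0.0761, -0.37 to -0.06) for Ms4a6b and -0.18 (SE 0.0609, -0.30 to -0.05) for Cd52. Ms4a6b and Cd52 were lower in all 6 single-antibody samples than in all 3 isotype samples, as were 1.77% of genes. For Lgals9 the value was -0.01 (-0.21 to 0.20), for Lgals1 0.06 (-0.14 to 0.26) and for Ms4a4c -0.02 (-0.50 to 0.47). In edgeR 0 of the 6 and 0% of genes were called, with 1238 genes (8.18%) and 3 of the 6 at an unadjusted p under 0.05. DESeq2's Wald test called 44 genes, Cd52 among them.

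**Figure D2:**
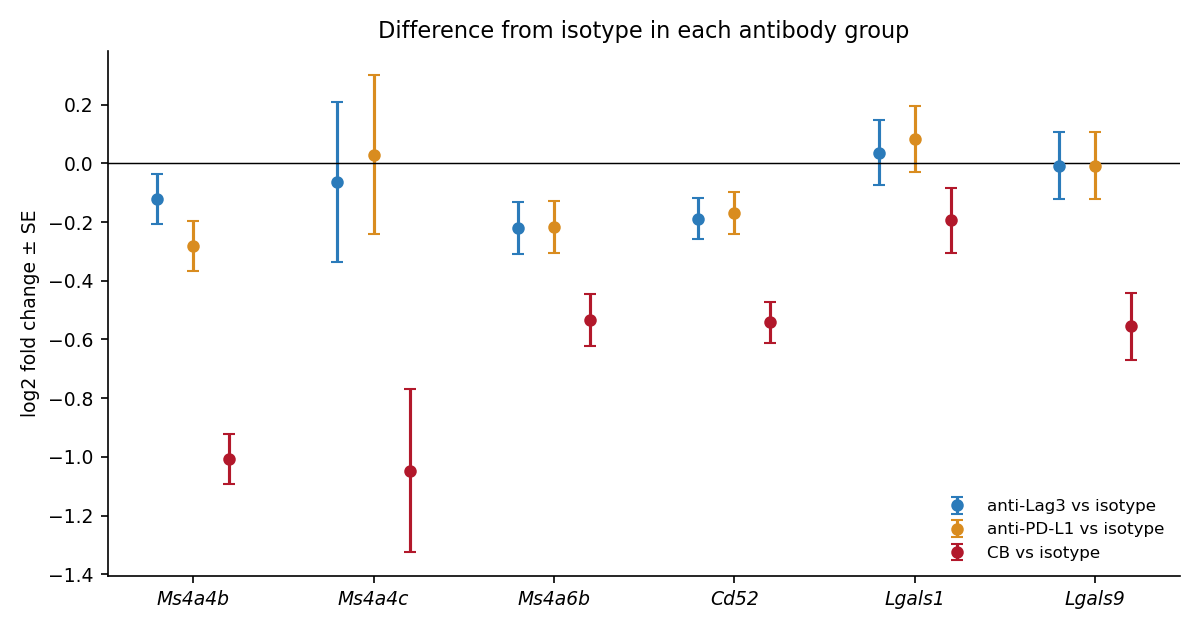
Log2 fold change against isotype with its SE (vertical axis) for the 6 genes in the anti-Lag3, anti-PD-L1 and CB groups. The single-antibody values lie between -0.28 and 0.08, whereas the CB values run from -1.05 for Ms4a4c to -0.19 for Lgals1.

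The interaction is the difference of CB from isotype less the sum of the differences of the single antibodies from isotype. It used the CB samples and is a description. It was -0.60 (SE 0.119) for Ms4a4b, -1.01 (SE 0.387) for Ms4a4c and -0.54 (SE 0.162) for Lgals9, and nearer to 0 for Ms4a6b (-0.10, SE 0.1253), Cd52 (-0.18, SE 0.1001) and Lgals1 (-0.31, SE 0.158). EdgeR called 0 of the 6 and 0% of genes for the interaction, with 898 genes (5.93%) at an unadjusted p under 0.05, and DESeq2 called 5 genes. Ms4a4b was among those 5, and it was also called without a filter on low counts and with the replicate number as a block. These calls are no support for its choice, since the CB samples entered the choice and each of these fits.

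The neighbours on chromosome 19 were read for how far the lower level in CB extended along the cluster. Between Ms4a4c and Ms4a4b lies Gm5511, and between Ms4a4b and Ms4a6b lie Ms4a6c, BE692007 and Gm8369. Their log2 fold changes between CB and isotype were 0.21 for Gm5511, -0.10 for Ms4a6c, 0.21 for BE692007 and -0.14 for Gm8369, with adjusted p of 0.541 or more. Gm8369, only 3935 bases from Ms4a6b, had 28123 reads and BE692007 had 16051, so these 2 genes were measured with many reads. Within 100 kb of a member and apart from the members, Sh3bgrl3 near Cd52 (-0.40, adjusted p = 0.0386) and H1f0 near Lgals1 (-0.80, adjusted p = 0.0193) were called, and none was called near Lgals9. Gm19261 overlaps the start of Ms4a6b on the opposite strand and had 217 reads.

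The lists of related genes that follow were chosen with earlier results of these data known, so the calls on them are a description that supports nothing. Of 17 other MS4A family genes 8 had enough reads to be tested, and 0 were called between CB and isotype, where 4.29% of all genes were called in either direction. The most abundant were Ms4a6d, at 12.1 ± 2.58 CPM in isotype and 12.4 ± 3.10 in CB, Ms4a6c, at 9.15 ± 1.00 and 8.54 ± 0.796 CPM, and the B cell gene Ms4a1, at 3.93 ± 2.01 and 1.83 ± 2.28 CPM (SD, n = 3). Their log2 fold changes were 0.03 (SE 0.339), -0.10 (SE 0.470) and -1.09 (SE 0.813). The median of the 8 was -0.56, beside 0.00 over all genes. The low counts of these genes leave wide errors, and for Ms4a6d and Ms4a6c the SE is several times that of Ms4a4b.

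Of 7 other galectin and galectin-related genes tested, 1 was called between CB and isotype, where 4.29% of all genes were called. This call too is a description. Lgals3bp rose in CB, from 56.1 ± 10.7 CPM in isotype to 93.8 ± 3.81 CPM (log2 fold change 0.74, SE 0.155, adjusted p = 0.00419). It encodes a secreted glycoprotein that binds galectin-3. Its level was also 86.7 ± 15.8 CPM in anti-PD-L1 (0.63 against isotype) and 91.8 ± 8.89 in anti-Lag3 (0.71), which were not called, and CB lay above them by 0.11 and 0.03 on the log2 scale. Lgals3, the gene of galectin-3, had 14.7 ± 2.63 and 8.14 ± 5.88 CPM (-0.85, SE 0.434, adjusted p = 0.360), with 12.2 ± 2.07 in anti-Lag3 and 14.9 ± 6.26 in anti-PD-L1, so its mean too was lowest in CB. Lgals8, named after its values were seen, had 9.06 ± 1.62 and 5.64 ± 3.98 CPM (-0.68, adjusted p = 0.522). Lgals7 had 8.63 ± 0.786 and 13.2 ± 3.65 CPM (0.61, adjusted p = 0.424). The median of the 7 was -0.14, beside 0.00 over all genes.

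Among 10 glycoproteins of T cells that galectins bind, Cd47, the gene of a widely expressed surface protein that signals to phagocytes, was the 1 gene called between CB and isotype, and it was lower in CB, where 1.96% of all genes were called lower. Its level was 307 ± 36.8 CPM in isotype and 230 ± 20.6 CPM in CB (log2 fold change -0.42, SE 0.107, adjusted p = 0.0204). That call was not met without isotype 2 (adjusted p = 0.0516), isotype 3 (0.144), CB 1 (0.109) or CB 3 (0.102). Ptprc, the gene of CD45, had 911 ± 43.5 and 886 ± 54.2 CPM (-0.04, SE 0.0796) and Spn, the gene of CD43, had 557 ± 30.5 and 568 ± 26.02 CPM (0.03, SE 0.0872). Neither differed beyond its spread. Cd44, Itgb1, Cd7 and Lag3, named after their values were seen, had values further from 0 than Cd47 that were not called. These were -0.53 (SE 0.166, adjusted p = 0.0696) for Cd44, -0.59 (SE 0.176, adjusted p = 0.0568) for Itgb1, -1.81 (SE 0.883, adjusted p = 0.337) for Cd7 and 0.60 (SE 0.548, adjusted p = 0.689) for Lag3, the last 2 with mean levels under 10 CPM. The median of the 10 was -0.01. As for the other lists, the call on Cd47 is a description.

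Of 12 enzymes that build or cap galectin ligands, 2 sialyltransferase genes were called lower in CB than in isotype, where 1.96% of all genes were called lower. The list was chosen with earlier results of these data known, so these calls are a description. St6gal1, whose product caps galactose with sialic acid, had 80.1 ± 7.27 CPM in isotype and 34.0 ± 3.98 CPM in CB (log2 fold change -1.24, SE 0.173, adjusted p = 6.13e-05). It was also lower in CB than in anti-Lag3 (-0.87, adjusted p = 0.0111). Between CB and anti-PD-L1, 0 of the 12 enzymes were called, where 0.165% of all genes were called lower. St3gal1, which sialylates O-linked glycans, had 74.6 ± 14.3 and 42.2 ± 1.12 CPM (-0.82, SE 0.188, adjusted p = 0.00846), a call that was not met without isotype 1 (adjusted p = 0.0694). B4galt1, a galactosyltransferase, had 84.5 ± 3.55 and 71.2 ± 5.62 CPM (-0.25, adjusted p = 0.402). The median of the 12 was -0.12. None of these 4 called genes was called with spike-in scaling (adjusted p between 0.0764 and 0.846, edgeR), where 73 of all genes were called between CB and isotype. That scaling widened the SE of the members, for Ms4a4b from 0.0852 to 0.236. A lost call alone thus does not show a smaller change.

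**Figure D3:**
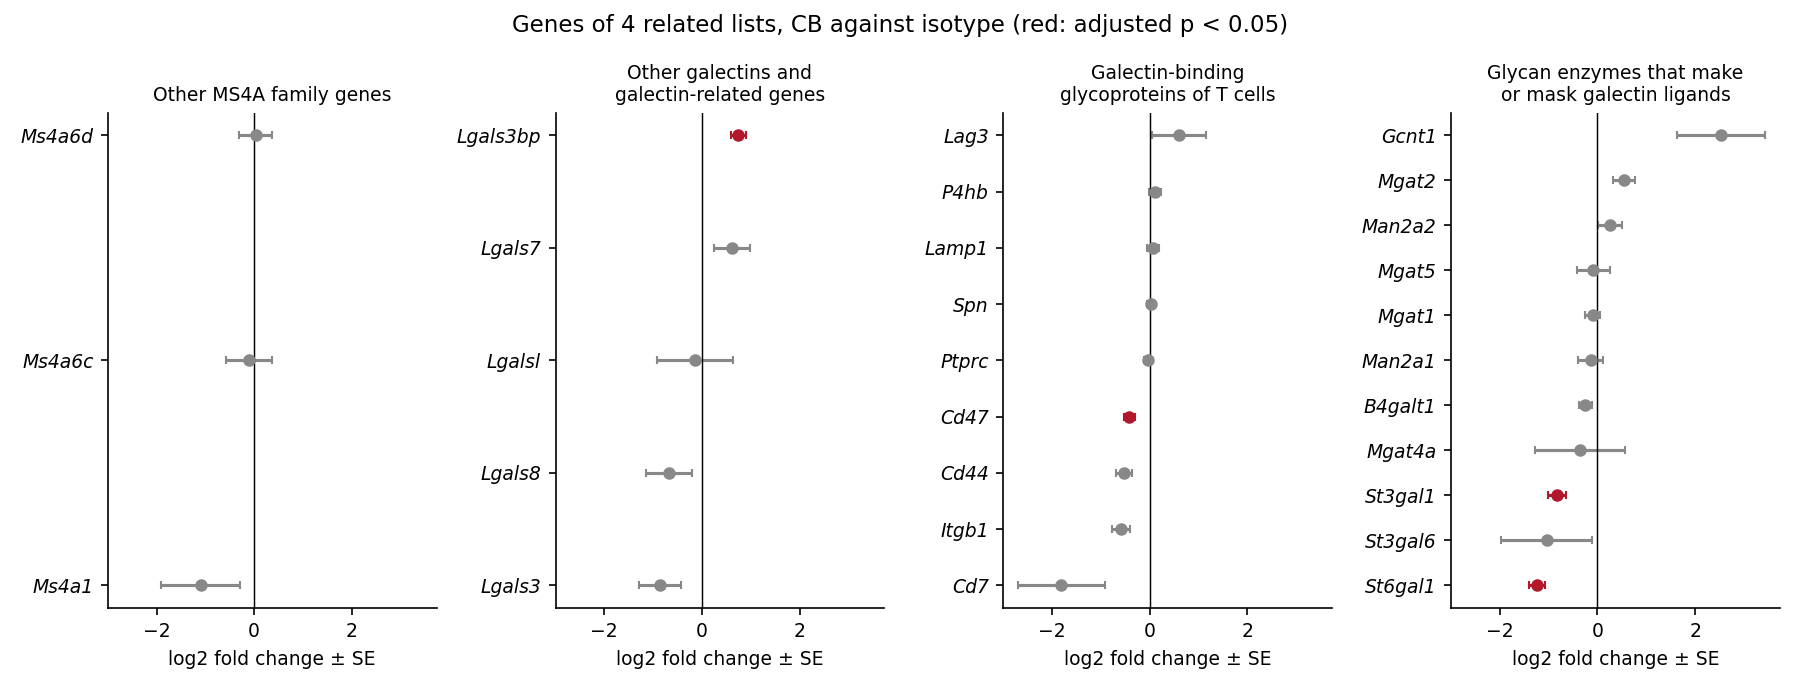
Log2 fold change between CB and isotype with its SE (horizontal axes) for the genes with at least 500 reads in 4 lists. These were other MS4A genes (3), other galectin and galectin-related genes (5), galectin-binding glycoproteins (9) and glycan enzymes (11). Red points mark an adjusted p under 0.05, met by Lgals3bp, which was higher in CB, and by Cd47, St3gal1 and St6gal1, which were lower.

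Genes related to CD52 and to MS4A4B by function were read beside the 4.29% of all genes called between CB and isotype. Of 25 tested genes that make or attach the GPI anchor, 0 were called, and their median log2 fold change was -0.05. The most abundant, Dpm3, Pigt and Pigx, had values of -0.24, -0.12 and -0.05 (SE 0.148 to 0.207). Of the 5 genes listed for soluble CD52, too few to set against that share, 0 were called. The list holds the binder genes Hmgb1 and Siglecg, and also Lck, Zap70 and Ptpn6, which are not given here as binders. Hmgb1 had 279 ± 15.2 CPM in isotype and 348 ± 24.7 in CB (0.32, adjusted p = 0.0570, edgeR), Lck had -0.16 and Ptpn6 -0.01 on the log2 scale. Tnfrsf18, the gene of GITR, had 78.3 ± 21.2 and 111 ± 13.5 CPM (0.51, SE 0.177, adjusted p = 0.116), and its ligand gene Tnfsf18 had no read. In the 4 comparisons without CB, no gene of these lists was called. Among all genes, 0.033% were called for anti-PD-L1 against isotype and 0% in the others, so nothing is read from this.

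The genes whose log2 CPM followed each member most closely over the 12 samples were sought among 7349 genes with a mean of at least 10 CPM. Pearson's r is given as a description, since the samples share their groups and libraries. For Ms4a4b they were S100a10 (0.966), Cmtm7 (0.959) and Traf3ip3 (0.9501), and for Cd52 they were Arhgdib (0.973), S100a10 (0.960) and Cmtm7 (0.954). S100a10, which encodes a partner of annexin A2, had a log2 fold change of -1.17 between CB and isotype. The genes most like Lgals9 were Hp1bp3 (0.933), Anxa2 (0.928), the gene of annexin A2, and Rasgrp2 (0.928), a Ras and Rap activator.

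For Ms4a6b the closest genes were Anxa6 (0.963), Cryl1 (0.943) and Ehmt2 (0.940), and for Ms4a4c Sp100 (0.934), Arhgef18 (0.911) and Ciz1 (0.897). Lgals1 had lower values, with Serinc3 (0.855), Vsir (0.850) and Ltb (0.850), which encodes lymphotoxin beta. The genes that ran most against the members were Dkc1 for Ms4a4b (-0.973), Nsun2 for Cd52 (-0.963), Gtpbp4 for Lgals9 (-0.953), Mtrex for Ms4a6b (-0.939), Nifk for Lgals1 (-0.874) and Ywhae for Ms4a4c (-0.865). Dkc1 encodes the pseudouridine synthase of box H/ACA particles, and Nsun2 an RNA methyltransferase. Both were higher in CB than in isotype, by 0.82 and 0.80 on the log2 scale. They and S100a10 were picked by r with members chosen with CB in view, so their direction in CB largely followed from the choice.

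The members correlated with each other by 0.348 to 0.945 over the 12 samples, the highest for Ms4a4b with Cd52, and by -0.597 to 0.783 once each group's mean was subtracted. For Ms4a4b and Ms4a6b the value was 0.826 over all samples and -0.597 within groups. Over the 18 pairs of a member with a gene most like it, the value within groups ran from 0.243 for Traf3ip3 with Ms4a4b to 0.927 for Ltb with Lgals1. It was 0.743 for S100a10 with Ms4a4b and 0.785 for Anxa6 with Ms4a6b. The other genes closest to Lgals1 had 0.891 for Serinc3 and 0.820 for Vsir. These genes were picked by r over the same 12 samples, variation within groups included, so nothing is read from their values within groups.

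**Figure D4:**
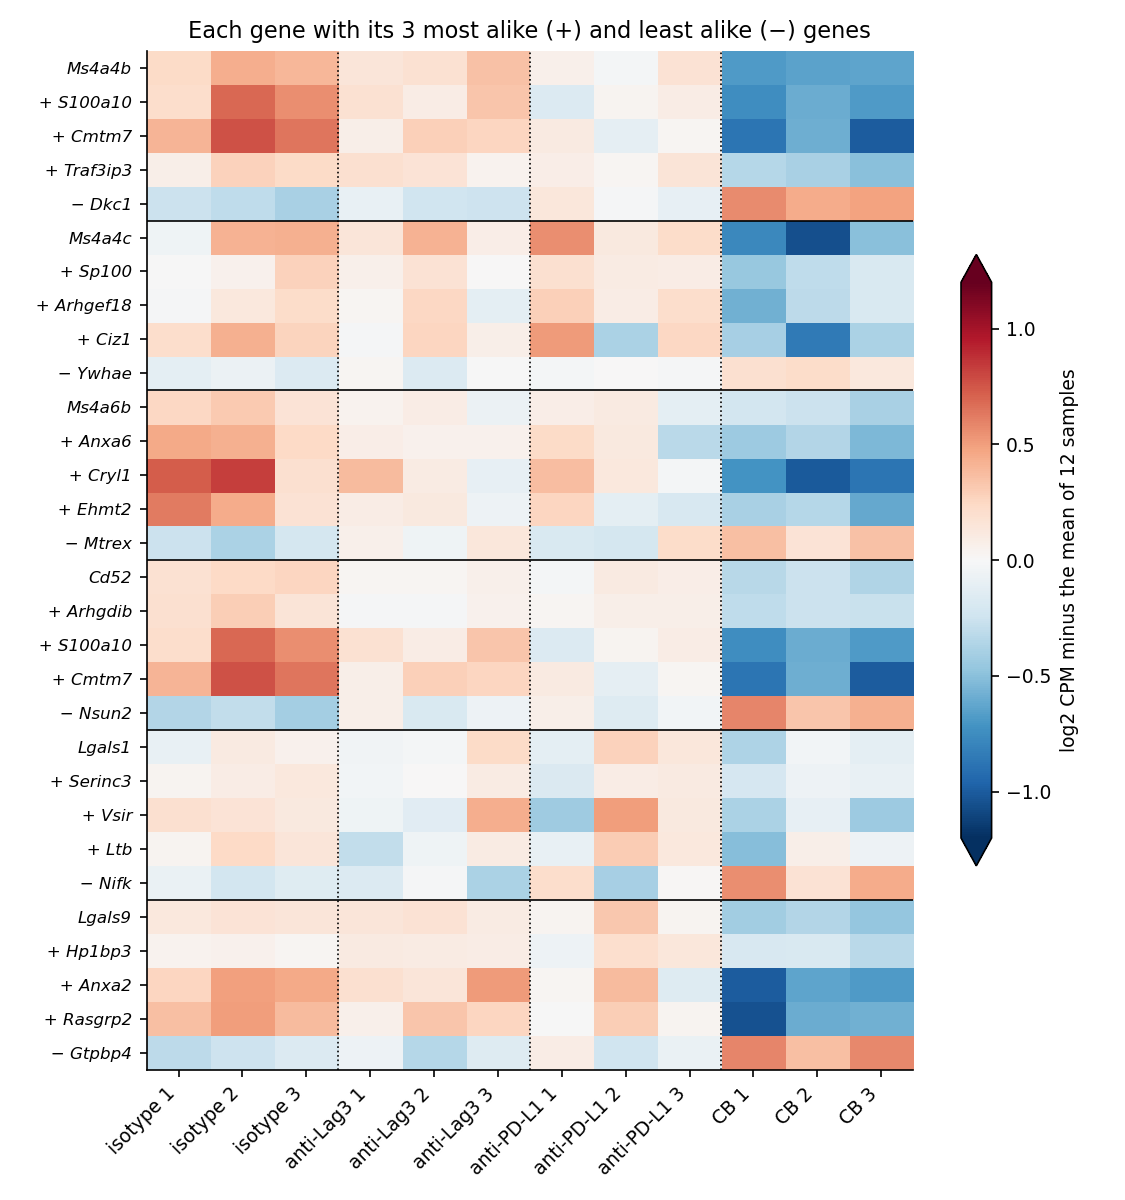
Log2 CPM minus the mean of the 12 samples (colour) for each member, its 3 most alike genes (+) and its least alike gene (−), with samples in columns by group. CB samples are mostly blue for the members and their most alike genes, weakest in the Lgals1 block, and red for the least alike genes. The genes were picked by r with the members over these samples, so the colours largely follow from the choice.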

How the data were processed

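The authors trimmed reads with cutadapt 1.18, mapped them with STAR 2.6.1a to GRCm38 and counted them on genes with featureCounts 1.6.4, per the submitters' processing notes. Libraries were 3′ mRNA libraries without molecular identifiers, so intervals cover no amplification error. The deposited counts are whole, not normalized, and cover 56691 genes and 114 spike-in transcripts. The authors also deposited rlog values, log2 values made with DESeq2, for 10492 rows. They were used only to check the order of group means. No column of samples was left unused (0). Symbols and coordinates came from GENCODE M21 (52073 genes matched) and promoters from RefSeq (GRCm38.p6).

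Genes with at least 30 reads in sum were fitted with edgeR 4.0.16 in R 4.3.3 (TMM, 4 group means, all 12 samples, quasi-likelihood tests, Benjamini-Hochberg adjustment over 15138 genes, threshold 0.05). The methods were tested on simulated counts. DESeq2 1.42.0 and other settings were alternatives. The replicates are separate mice. The members and lists were chosen with earlier results of these data known. The genes named are mainly the 6 members and each list's called genes and its 3 most abundant. For each member the 3 most and 1 least alike genes are named too. Outside this rule, Lgals8, Cd44, Itgb1, Cd7, Lag3 and the markers Tyrobp, Adgre1 and Xcr1 were also named. Neighbours within 100 kb were named after their values were seen. Checks of the pairs of libraries within each group found no duplicate.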

Additional observations from a re-analysis of the deposited data

How the results depend on the processing

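The mean of CB was the lowest of the 4 groups for all 6 genes with TMM, DESeq2 size factors, spike-in scaling and the deposited rlog values. The number of members called between CB and isotype was 5. It was 0 with spike-in scaling and, in tests against a change of 0.2 on the log2 scale, 4 in edgeR and 3 in DESeq2. It ranged from 4 to 5 when each sample was left out. Over all genes the number was 649, and in the same order it was 73, 364, 233 and 394 to 705. Against anti-PD-L1 the number of members called was 3, and it was 0 with spike-in scaling, 1 in either test against 0.2 and 5 in DESeq2's Wald test. It was 1 where the fit held the groups compared alone, and it ranged from 1 to 3 when each sample was left out. Over all genes 56 were called, with 3 in edgeR's and 18 in DESeq2's test against 0.2. The Wald test called 178, the fit of the groups compared alone 4, and the fits with a sample left out 4 to 57. Against anti-Lag3 the number of members called was 3, and it was 0 with spike-in scaling, 1 in either test against 0.2 and 5 in DESeq2's Wald test. It ranged from 1 to 3 with samples left out. Over all genes 105 were called, with 1 for spike-in scaling and 39 in edgeR's and 41 in DESeq2's test against 0.2. The Wald test called 280, and the fits with a sample left out 42 to 125. For both single antibodies against isotype the number of members called was 0, and 1 in DESeq2's Wald test, which called 44 genes. For the interaction it was 0. It was 1 (Ms4a4b) without a filter on low counts (10 of all genes), in DESeq2's Wald test (5) and with the replicate number as a block (4). The cause of these differences was not tested, except that a test against 0.2 asks for a larger change by its construction.

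Values that changed sign were small ones between groups without CB. With spike-in scaling, which moved the median of all genes by 0.16 between anti-Lag3 and isotype and by -0.16 between the single antibodies, anti-Lag3 against isotype gave 0.0294 for Ms4a4b, 0.134 for Ms4a4c and 0.162 for Lgals9. Anti-PD-L1 against anti-Lag3 then gave -0.0616 for Ms4a4c, -0.160 for Ms4a6b, -0.144 for Cd52, -0.113 for Lgals1 and -0.172 for Lgals9, and both single antibodies against isotype gave 0.103 for Ms4a4c and 0.0762 for Lgals9. Without the filter, anti-PD-L1 against anti-Lag3 gave -0.00428 for Ms4a6b and -0.00545 for Lgals9, and Lgals9 had -0.000564 with only the groups compared. With single samples left out, anti-PD-L1 against isotype ranged from -0.115 to 0.119 for Ms4a4c, from -0.0119 to 0.183 for Lgals1 and from -0.110 to 0.0419 for Lgals9. Anti-Lag3 against isotype ranged from -0.208 to 0.0142 for Ms4a4c, from -0.0543 to 0.0833 for Lgals1 and from -0.0312 to 0.0124 for Lgals9. Anti-PD-L1 against anti-Lag3 ranged from -0.0493 to 0.206 for Ms4a4c, from -0.0415 to 0.0681 for Ms4a6b, from -0.00913 to 0.0573 for Cd52, from -0.0480 to 0.147 for Lgals1 and from -0.102 to 0.05001 for Lgals9, and both single antibodies against isotype from -0.162 to 0.0609 for Ms4a4c and from -0.0593 to 0.0169 for Lgals9.

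The deviations of samples of the same number in different groups had r from -0.0612 to 0.1247 over 18 pairs. Those of other numbers had r from -0.134 to 0.0741 over 36 pairs, and 10 of 12 samples correlated best with a sample of their own number. The labels do not say whether the number marks a sort batch, and this was not tested. The main fit held no block, so it took no account of a batch, and the replicate number was used as a block in an alternative fit. With the replicate block, the count of genes called for CB against isotype went from 649 to 843, and the members called there stayed 5. Ms4a6b was also called against each single antibody (-0.31 in both), where the genes called went from 56 to 137 for anti-PD-L1 and from 105 to 208 for anti-Lag3. Lgals9 then had -0.00320 between anti-PD-L1 and anti-Lag3.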
